A study of Drosophila melanogaster with 2 samples.

Results

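The small RNA pathway genes described here are 10 listed genes of Drosophila melanogaster. They encode the Argonaute proteins AGO1, AGO2, AGO3, piwi and aub, the Dicer enzymes Dcr-1 and Dcr-2, the microprocessor subunits drosha and pasha, and the Dicer partner loqs. They were taken by symbol, and all 10 matched a gene among the 13968 protein-coding genes on the main chromosome arms. Of these, 7 act in the microRNA and siRNA pathways (AGO1, AGO2, Dcr-1, Dcr-2, drosha, pasha and loqs) and are called general genes here, and 3 (piwi, aub and AGO3) act in the piRNA pathway of the germ line. The data are chromatin immunoprecipitation with sequencing (ChIP-seq) of CG8478, tagged with enhanced green fluorescent protein (eGFP) and pulled down by its tag with an antibody to GFP. All libraries come from 1 group, whole embryos of 0 to 24 h of the transgenic strain CG8478-GFP, with 2 biological replicates. There was no second genotype or treatment to compare with, and the control experiment that the labels name was not analysed here. Whole embryos pool all cell types, so binding in few cells and weak binding in many cannot be told apart, and no expression was measured. The labels do not say which promoter drives the fusion.

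Argonaute proteins carry a small RNA that guides them to complementary transcripts. In the microRNA pathway the microprocessor, made of the nuclease Drosha and its RNA-binding partner Pasha, cuts primary transcripts in the nucleus, and Dicer-1 then releases the microRNA that AGO1 uses. In the siRNA pathway Dicer-2 cuts long double-stranded RNA for AGO2, and Loquacious assists both Dicers through different isoforms. The piRNA pathway needs no Dicer: Piwi silences transposons in the nucleus, while Aubergine and AGO3 cut transposon transcripts in the germ line cytoplasm.

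The sequences below show the start sites of 5 genes, 2 that had a peak (AGO2 and Dcr-1) and 3 that had none (pasha, piwi and AGO3), because the same short motifs stand in both kinds. Each runs 5′ to 3′ on the strand of the gene in build dm6 (RefSeq Release 6 genome), from at most 120 bases upstream to 30 bases from the start site on. Capitals mark ATCGAT, the core of the DNA replication-related element (DRE), CGATA, the core bound by the insulator protein BEAF-32, and GGTCACAC, the core bound by the promoter factor M1BP, on either strand. ATCGAT followed by A also holds CGATA. The regions are chr3L:15553993-15554142 (+) for AGO2, chr3R:22741062-22741179 (-) for Dcr-1, chr3R:31617857-31618006 (+) for pasha, chr2L:10987391-10987540 (-) for piwi and chr3L:23554473-23554622 (+) for AGO3.
AGO2: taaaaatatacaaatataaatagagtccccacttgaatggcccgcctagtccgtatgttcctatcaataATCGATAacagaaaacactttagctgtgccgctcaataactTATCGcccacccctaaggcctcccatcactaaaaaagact
Dcr-1: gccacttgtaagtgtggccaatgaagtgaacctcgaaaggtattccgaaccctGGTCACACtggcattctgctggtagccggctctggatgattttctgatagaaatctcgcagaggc
pasha: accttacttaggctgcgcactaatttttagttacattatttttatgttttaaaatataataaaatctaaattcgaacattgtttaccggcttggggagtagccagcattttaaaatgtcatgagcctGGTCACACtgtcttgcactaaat
piwi: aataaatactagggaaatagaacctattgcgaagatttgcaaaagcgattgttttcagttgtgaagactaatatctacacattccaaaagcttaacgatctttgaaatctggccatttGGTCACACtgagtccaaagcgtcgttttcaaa
AGO3: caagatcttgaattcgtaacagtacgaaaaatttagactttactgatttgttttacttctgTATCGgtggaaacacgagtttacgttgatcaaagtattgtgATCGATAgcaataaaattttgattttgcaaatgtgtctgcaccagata

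AGO1, AGO2 and Dcr-1 had a promoter peak, and the other 7 genes did not. A promoter peak here is a peak whose summit lies within 500 bp of an annotated start site of the gene, in the conservative list that the authors made from both replicates. The 3 genes with a peak are 30% of the 10, against 22.6% of all protein-coding genes, so the share of the listed genes was near the background. All 3 were general genes (3 of 7), and 0 of the 3 piRNA genes had a peak. With 3 genes on the piRNA side, no test of this difference was made. In the optimal list, which is larger, AGO1 and Dcr-1 had a peak (2 of 10, against 23.5% of protein-coding genes). In the peak lists that the authors made for each replicate on its own, only AGO1 of the 10 had one (1 of 10 each, against 19.5% of protein-coding genes in replicate 1 and 18.8% in replicate 2).

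The 3 peaks differed widely in height. The signal, as deposited from the authors' peak caller with no stated scale, was 328.7 at AGO1, 86.7 at AGO2 and 50.5 at Dcr-1, beside a median of 142 over the 2577 conservative promoter peaks. AGO1 therefore stood in the upper part of that list, with 84.3% of promoter peaks below it. AGO2 had 27.2% below it and Dcr-1 6.33%, so both stood in the lower part.

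**Figure D1:**
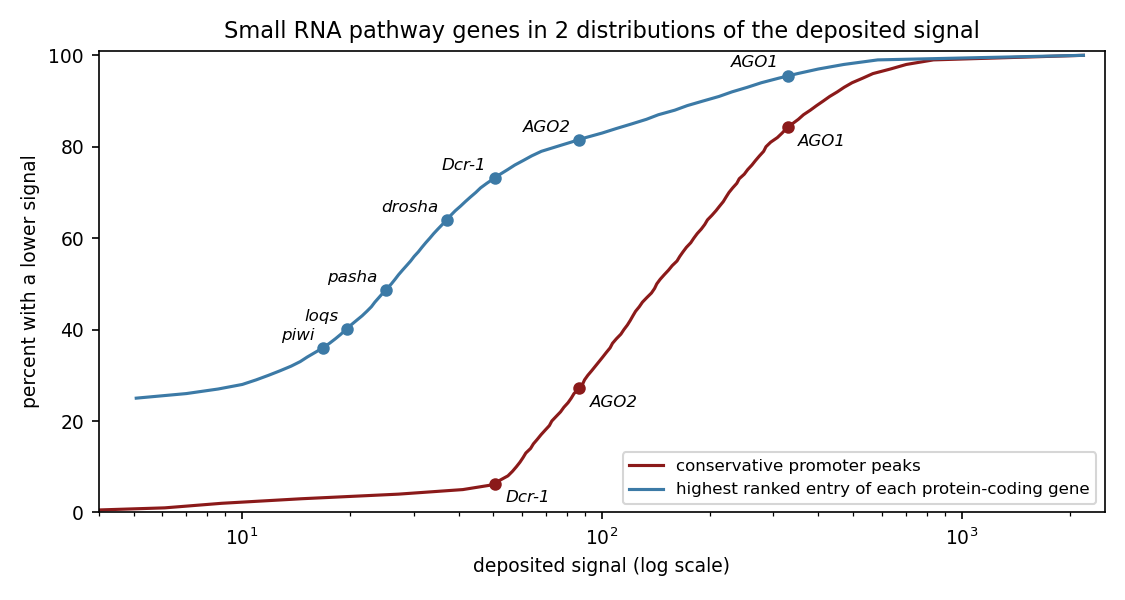
Deposited signal on a log scale (x) against the percent of a distribution with a lower signal (y). Red is the conservative promoter peaks. Blue is the highest ranked entry within 500 bp of a start site for each of the 13968 protein-coding genes, and genes without such an entry count as 0. Points are the listed genes: AGO1 lies at 84.3% of the red curve, AGO2 at 27.2% and Dcr-1 at 6.33%, while drosha, pasha, loqs and piwi have only entries below the threshold.

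AGO1, the Argonaute of the microRNA pathway (FBgn0262739, minus strand of arm 2R, 13943387 to 13958089 in dm6), had the highest and best repeated peak of the 10. Its peak spans 13954041 to 13954273. The input signals, which are the signals of the peak in the 2 inputs of the authors' between-replicate comparison, were 155 and 165. The same values stood in the ranked lists of replicate 1 and replicate 2 on their own, so the replicates gave nearly equal heights. The log2 ratio of the inputs was -0.09, beside a mean of 0.19 and an SD of 0.55 over all 2904 conservative peaks. The -log10 of the irreproducible discovery rate (IDR), a measure of how often a peak of that rank fails to repeat, was 5.0. The lowest value in the conservative list was 2.0, and peaks of genes named below, such as Patr-1 and Tudor-SN, also had 5.0.

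The AGO1 peak was at a start site used by 1 of the 4 annotated AGO1 transcripts. AGO1 has 3 start sites, and the summit lay 143 bp upstream of the most downstream of them (13954025), inside an intron of the transcripts that begin farther up. On the opposite strand mRpL53, a protein of the large mitochondrial ribosomal subunit, and the uncharacterised CG33155 both start at 13954195, 27 bp from the summit. The peak thus lay nearer to these neighbours than to AGO1. At the farthest upstream AGO1 start site (13958089), where 2 transcripts begin, no conservative summit was within 500 bp. The optimal list has a peak of signal 56.6 in that direction, with its summit 586 bp into the transcribed side. When each summit was given only to its nearest start site, AGO1 no longer counted as having a peak. That rule left 1 of the 10 genes with a peak, AGO2, against 16.2% of all protein-coding genes under the same rule.

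AGO2, the Argonaute of the siRNA pathway (FBgn0087035, plus strand of 3L, 15554113 to 15561042), was the only listed gene whose peak had no other gene's start site within 500 bp. Its peak spans 15553877 to 15554280, with the summit 34 bp upstream of the start site used by 2 of its 3 transcripts. The input signals were 56.4 and 31.0, so the first was higher, with a log2 ratio of 0.87. That ratio lies 1.23 SD from the mean over all conservative peaks. The summit falls on base 87 of the AGO2 sequence printed above, just downstream of the DRE core, whose first base is 51 bp upstream of the start site.

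The AGO2 peak was in the conservative list alone. It overlapped no peak of the optimal list and no peak of either replicate's own list, which held for 147 of the 2577 conservative promoter peaks (5.70%). Both replicates still had an entry at the start site in their own ranked lists, with signals of 56.4 in replicate 1 and 31.0 in replicate 2. Their -log10 IDR within the replicate was 0.07 in replicate 1 and 1.35 in replicate 2, below the 2.0 of the conservative list, where the same site had 2.72. Soft-masked repeat sequence made up 49.4% of the bases within 2500 bp of the AGO2 start sites, against a median of 11.6% for protein-coding genes, and 99.7% of these genes had less. The part of repeats in the values at AGO2 was not tested.

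Dcr-1, the Dicer that makes microRNAs (FBgn0039016, minus strand of 3R, 22734007 to 22741091), had the lowest of the 3 peaks. Its peak spans 22741015 to 22741418. The summit lay 126 bp upstream of its single start site, in the 5′ UTR of CG6985, an oppositely oriented gene whose start site is 67 bp from the summit. The input signals were 36.1 and 25.0, with a -log10 IDR of 2.22, close to the lowest value kept. The deposited -log10 q-value was 0.48, against a median of 2.11 for promoter peaks, and 6.33% of promoter peaks had a lower one. The site was in the optimal list too, with the same signal, but in neither replicate's own list. The same absence from both own lists held for 352 of the 2577 conservative promoter peaks (13.7%). In the replicates' own ranked lists the -log10 IDR of the Dcr-1 entry was 1.28 in replicate 1 and 1.04 in replicate 2.

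Dcr-2, the Dicer that makes siRNAs (FBgn0034246, minus strand of 2R, 17574979 to 17581525), had no entry within 500 bp of its start site even in the ranked list, which holds 113092 entries on the main arms, nearly all below the threshold. Most protein-coding genes, 76%, have an entry there. The nearest one to Dcr-2 lay 742 bp upstream, with a signal of 37.4 and a -log10 IDR of 0.57. The nearest conservative summit was 11125 bp away.

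The microprocessor genes and loqs had entries near their start sites that did not reach the threshold. At drosha, the nuclease of the microprocessor (FBgn0026722, plus strand of 2R, 7932429 to 7936840), the highest entry had a signal of 37.1, with the summit 44 bp downstream of the start site in the 5′ UTR. Its input signals were 28.2 and 13.0 and its -log10 IDR was 0.16. Among entries within 500 bp of a start site, this is the highest signal of the listed genes without a peak, and 63.9% of protein-coding genes had a lower one. On the opposite strand rnh1 starts 49 bp upstream of the drosha start site, so the entry lies near both genes.

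At pasha, the RNA-binding partner of Drosha (FBgn0039861, plus strand of 3R, 31617977 to 31622217), the highest entry had a signal of 25.1, 211 bp downstream of the first of 3 start sites. The inputs were 22.9 and 14.9, and the -log10 IDR was 0.56, the highest of the listed genes without a peak for entries within 500 bp of a start site. In replicate 1's own ranked list an entry of 22.9 stood near the start site, while replicate 2's own ranked list had none within 500 bp. At loqs, the partner of both Dicers (FBgn0032515, plus strand of 2L, 13382652 to 13385671), the highest entry had a signal of 19.6, with input signals of 17.4 and 9.97, and its summit lay at position -209 relative to the single start site of its 6 transcripts. Just inside the threshold stood Dcr-1, with a -log10 IDR of 2.22, and the next listed gene outside it was pasha, with 0.56.

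**Figure D2:**
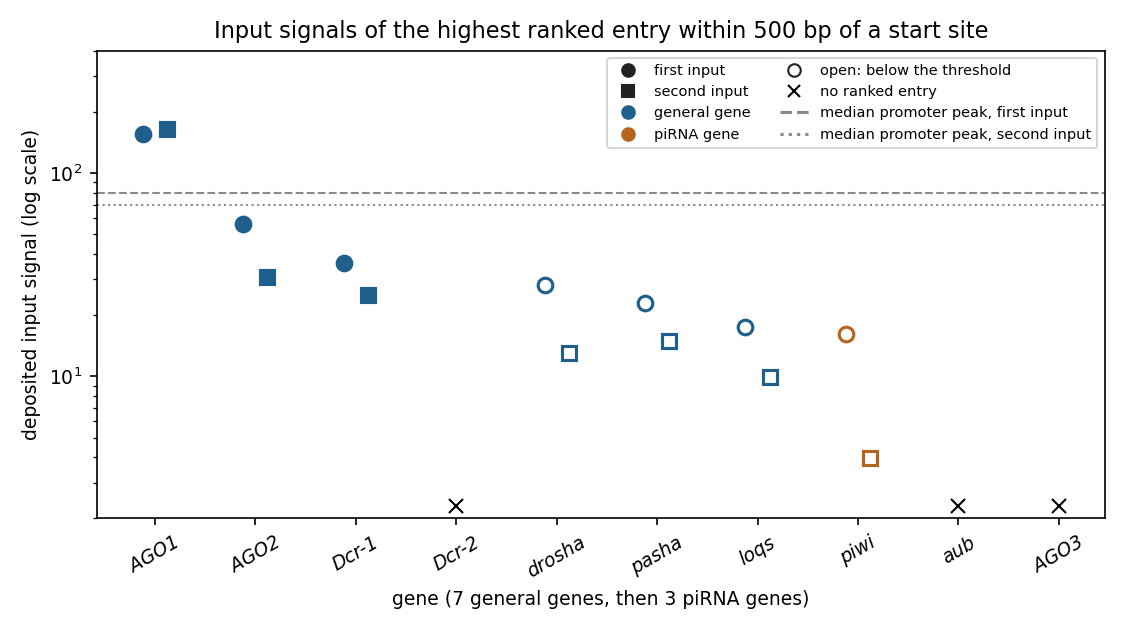
Deposited signals in the first (circles) and second (squares) input of the between-replicate comparison, on a log scale (y), at the highest ranked entry within 500 bp of a start site of each gene (x). Filled symbols are conservative peaks, open symbols entries below the threshold and crosses genes with no entry; dashed and dotted lines are the medians of promoter peaks in the first (80.3) and second (69.3) input. AGO1 alone lies above both lines, with 155 and 165.

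The first input was higher than the second at 6 of the 7 listed genes with a ranked entry within 500 bp of a start site, AGO1 being the exception. Among all conservative peaks the first was higher at 63.6%, and among the listed ones it was so at AGO2 and Dcr-1. The entries at drosha, pasha, loqs and piwi lie below the threshold, and no share over ranked entries is given here. As a ratio of first to second input, the largest of the 7 was at piwi, 4.07, from 16.1 and 3.96.

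None of the 3 piRNA genes had a peak, and 1 of them had a ranked entry within 500 bp of a start site. At piwi, the nuclear Argonaute (FBgn0004872, minus strand of 2L, 10982205 to 10987420), that entry had a signal of 16.8, with its summit 185 bp downstream of the start site in an intron, and a -log10 IDR of 0.04. Replicate 1's own ranked list had an entry of 16.1 there. Replicate 2's had none within 500 bp of the start site, although the second input of the between-replicate entry was 3.96. These values are the lowest of the 7 listed genes with an entry within 500 bp of a start site.

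A high peak lies close to piwi without being at its promoter. Its summit is 1942 bp upstream of the piwi start site and next to that of TTLL4A, a gene named for tubulin tyrosine ligase-like proteins. The signal there was 673. It lay outside the widest window tried, 1000 bp.

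At aub, a cytoplasmic Argonaute of the germ line (FBgn0000146, minus strand of 2L, 10997819 to 11001476), no ranked entry lay within 500 bp of either start site. The nearest was 664 bp downstream, with a signal of 31.2, input signals of 17.5 and 19.9 and a -log10 IDR of 0.72. The nearest conservative summit was 9645 bp away.

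AGO3, the partner of Aubergine (FBgn0250816, plus strand of 3L), is the longest of the 10 genes at 135048 bp, from 23554593 to 23689640. It was also the emptiest around its start sites: the nearest ranked summit was 9754 bp away, and 3.40% of protein-coding genes had a larger gap, against a median of 144 bp. Over the whole gene the ranked list had 0.32 entries per kb, against a median of 1.10 for protein-coding genes, and 21.9% of these genes had fewer. Within 2500 bp of its start sites 25.6% of bases were soft-masked, more than at 95.6% of protein-coding genes. Whether repeats, and reads that map to several places, keep entries from this region was not tested.

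**Figure D3:**
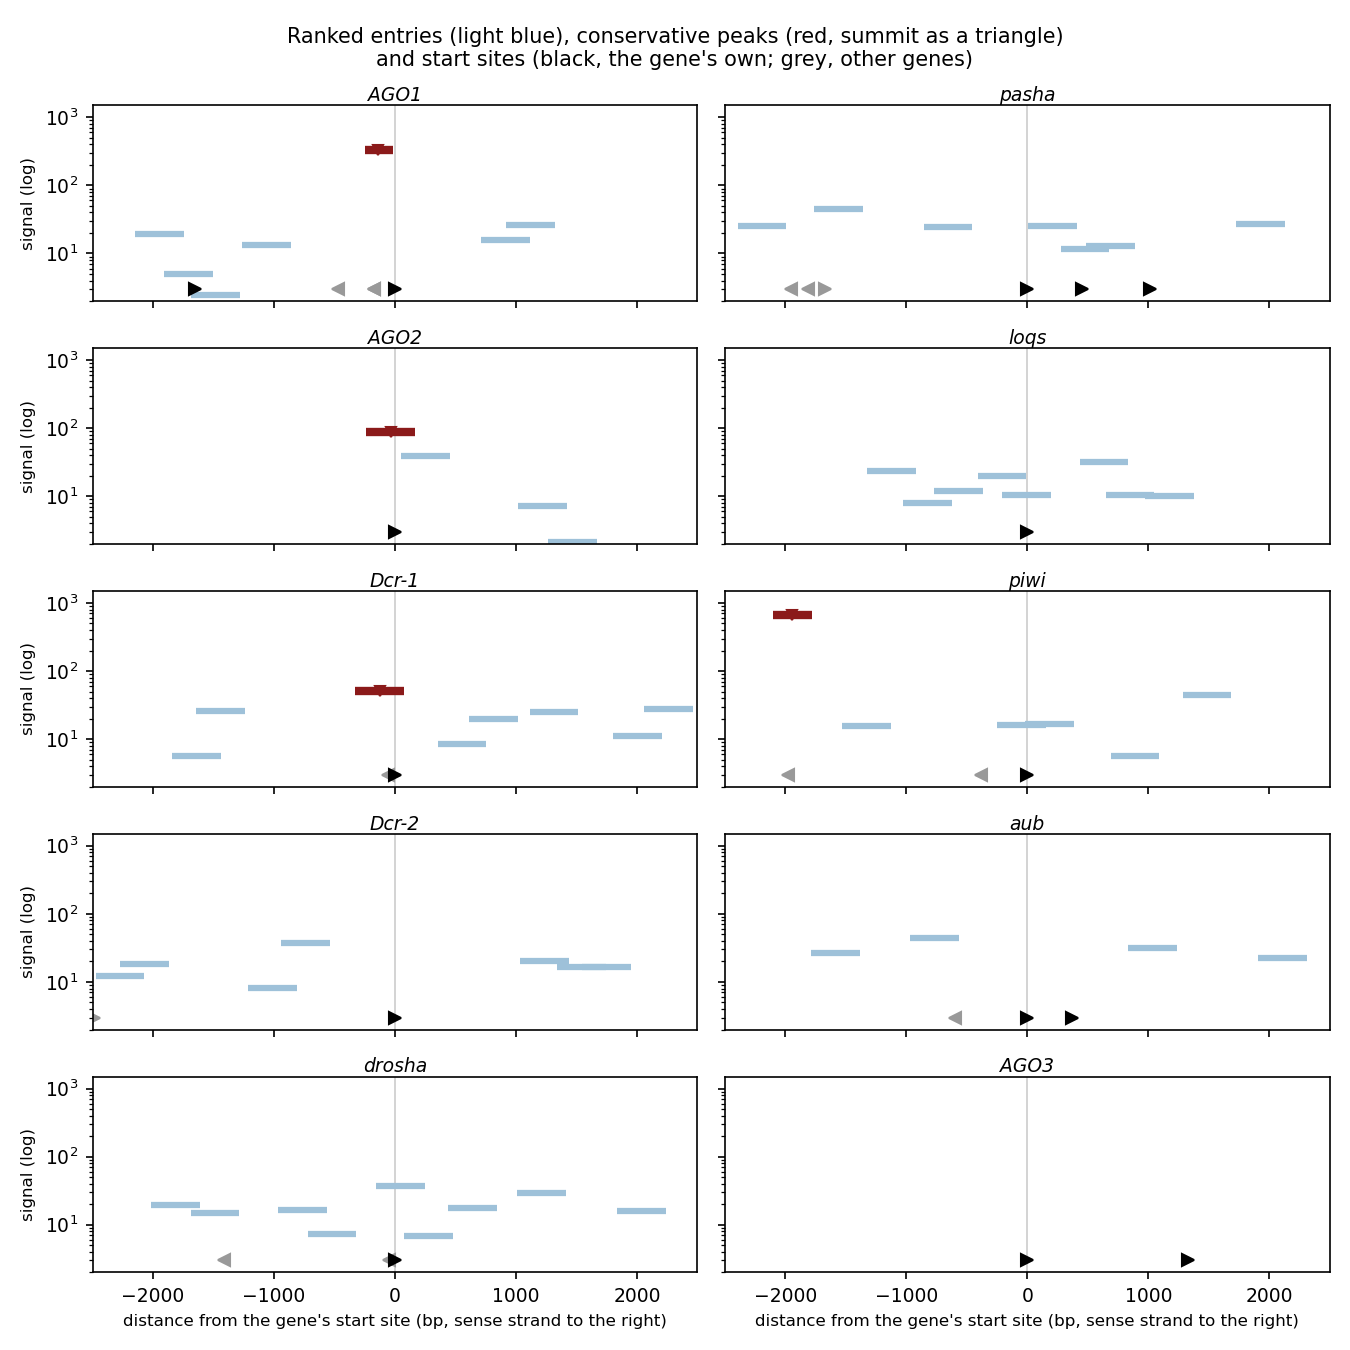
Deposited signal on a log scale (y) of ranked entries (light blue) and conservative peaks (red, the summit as a triangle) against the distance in bp from a start site of each gene (x, the direction of transcription to the right). Arrowheads at the bottom are start sites of the gene (black) and of other genes (grey). Peaks stand at the AGO1, AGO2 and Dcr-1 start sites, the peak near piwi stands 1942 bp upstream at another gene, and the AGO3 window is empty.

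Motifs of housekeeping promoters were found at several listed genes, with and without a peak. The full DREF site TATCGATA, which 29.4% of conservative promoter peaks hold in the window of 100 bp to each side of the summit, was in none of the 10 windows of that length, centred on the summit for the 3 genes with a peak and on a start site for the other 7. The DRE core ATCGAT was at AGO2 and AGO3, against 55.2% of promoter peak windows and 16.4% of the windows around 19268 protein-coding start sites. Both copies run on to ATCGATA, as printed above, yet AGO2 had a peak and AGO3 had no ranked entry within 500 bp.

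The M1BP core GGTCACAC was at 4 of the 10 genes, the general genes Dcr-1, Dcr-2 and pasha and the piRNA gene piwi. It is held by 8.69% of promoter peak windows and 5.68% of start site windows. Among these 4 genes only Dcr-1 had a peak. Its first base, counted with the start site as 0, was at -35 for Dcr-1, -71 for Dcr-2, 7 for pasha and -2 for piwi. The BEAF-32 core CGATA was at AGO1, AGO2, drosha, aub and AGO3, against 76.4% of promoter peak windows and 37.1% of start site windows. AGO1, with the highest signal, held CGATA at 2 positions around its summit and no DRE or M1BP core. In the window of the same length centred on the AGO1 start site there was no CGATA.

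Each of the other motifs searched was found at 1 to 5 of the listed genes. The E-box CAGCTG was at AGO1 alone (14.4% of promoter peak and 13.4% of start site windows), and so was the GAGA factor site GAGAG (17.5% and 25.0%). TATAAA, the TATA box, was at AGO2 and Dcr-1 (25.3% and 26.9%), in both cases over 100 bp upstream of the start site. The initiator core TCAGT was at 5 of the 7 genes without a peak, pasha, loqs, piwi, aub and AGO3, and at none of the 3 with one (30.1% and 43.4%). The windows of the genes without a peak lie on the start site itself, and those of the genes with one on the summit. CAGGTA, the core bound by Zelda, was at loqs alone (4.31% and 4.27%), and GCCAT, the core bound by Pho, was at AGO2, drosha and piwi (31.2% and 30.8%).

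Promoter peaks were also counted in 5 further lists, of genes of the small RNA pathways and of germ line markers. Over their distinct genes 42 of 79 had one (53.2%, against 22.6% of protein-coding genes). The difference from the 3 of 10 listed genes was not tested. Among 20 genes that carry out microRNA silencing, 12 had a peak. The highest were at Patr-1 (389, shared with bdwf) and DCP2 (285, shared with dbo), both of mRNA decapping, and at 3 genes of the CCR4-NOT deadenylase, Rga (327, shared with Atu), Pop2 (273, shared with CG6928) and Not1 (241, shared with Nt5c). All 5 of these peaks thus had a start site of another gene within 500 bp, and the DCP2 summit lay at position -447 relative to the DCP2 start site. Deeper in that list gw, the GW182 partner of AGO1, had 158 and DCP1, in a peak shared with DNAlig1, had 138. The peaks of AGO1 and Rga were thus of nearly the same height, 328.7 and 327.

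Among 15 genes of the siRNA pathway and the silencing complex, 10 had a peak. The highest was at Tudor-SN, a nuclease of the silencing complex (651, in a peak shared with mRpL17), followed by the RNA helicase gene bel (310), Hsp83, the Hsp90 chaperone (281, shared with CG14965), Trax, of the complex that clears passenger strands (269, shared with Cog2), and vig (210). The summit of the Hsp83 peak lay at position -416 relative to the Hsp83 start site. The Dicer-2 partner r2d2 had 179 in a peak shared with Herp, although Dcr-2 itself had no entry within 500 bp of its start site. Hen1, which methylates siRNAs and piRNAs, had 94.7.

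Genes of the piRNA pathway other than the 3 Argonaute genes did have peaks. Of 25 piRNA biogenesis genes 10 had one, with the highest at squ (479, shared with grp), Hsp83, the helicase gene spn-E (238, shared with ND-23), the Tudor domain gene tej (237) and tud (180, beside 2 tRNA genes). The summits at tej and tud lay far from their start sites, at -445 and -416. Of 17 genes for the nuclear steps and piRNA clusters 11 had one, among them arx (397, shared with CG6843), sov (317), the helicase gene Hel25E (278, shared with Lam), the gene of the heterochromatin protein HP1a (206, shared with Ssb-c31a) and Nxf3 (143, shared with Meics and ssp2). The Nxf3 summit too lay far from the Nxf3 start site, at -413. Panx, the silencing partner of Piwi, had 139.6 in a peak shared with CG9485. Several of these genes are not confined to the germ line. Of 9 germ line marker genes 3 had a peak, tud, gcl (124, shared with CG14767) and bgcn (91.2).

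**Figure D4:**
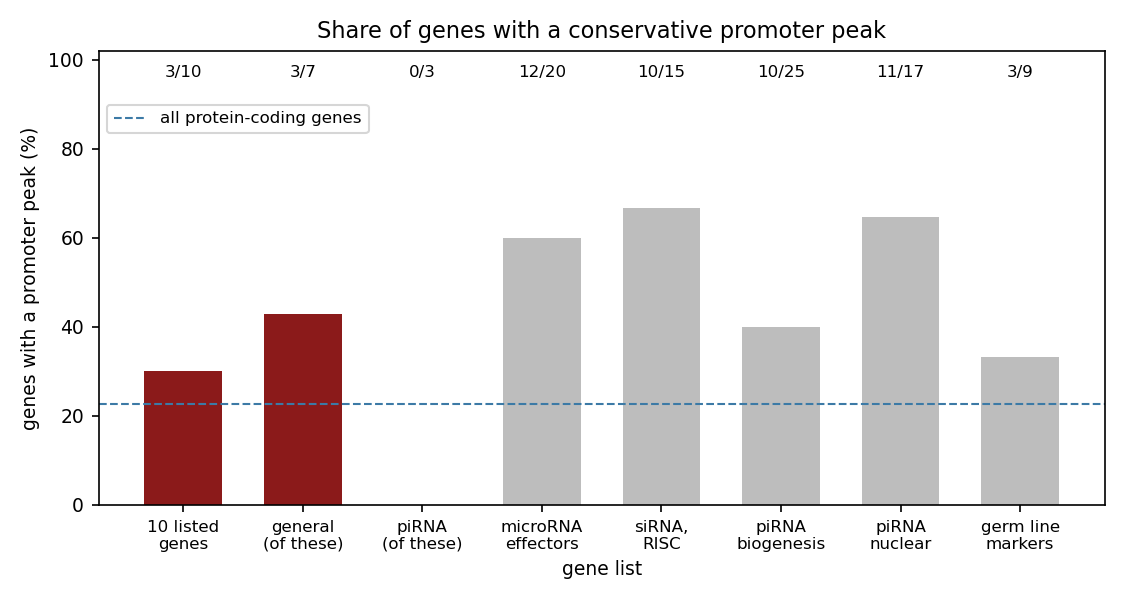
Percent of genes with a conservative promoter peak (y) in the 10 listed genes and their 2 kinds (red) and in 5 further lists (grey), with the number of genes with a peak over the number matched above each bar; the dashed line is the 22.6% of all protein-coding genes. The listed genes stand at 3 of 10, all from the 7 general genes, and the further lists at 12 of 20, 10 of 15, 10 of 25, 11 of 17 and 3 of 9.

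Shared promoters were common among all these peaks. Start sites of 2 or more genes lay within 500 bp of the summit in 44.7% of conservative promoter peaks, as at AGO1 and Dcr-1. The lists overlap, since Hsp83, Hen1, tud and Nbr stand in more than 1 of them, and none was matched to the listed genes for expression.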

How the data were processed

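ChIP-seq peak lists of 2 biological replicates of 1 group were used, in dm6 coordinates per the file headers. Per the file headers, each list rests on the aligned reads of 1 or both replicates and of 1 control. Which aligner and peak caller made them is not given in the sources used here. Each peak has a signal of unstated scale, deposited by the authors, a deposited −log10 q-value, and, in the ranked lists, the −log10 of the global IDR, a score deposited by the authors. The conservative list begins at 2.0, so it was taken as thresholded at an IDR of 0.01. No read counts were used, so the depth is unknown and no interval that needs it is given.

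On the 7 main arms, an interval listed more than once in a thresholded list was kept once, at its highest signal. In the ranked lists all entries on these arms were kept. Start sites came from Ensembl release 115, without transposable elements, and sequence from the RefSeq Release 6 genome. A peak with start sites of several genes counts for each of them. Motifs were searched on both strands. Gene lists were matched by symbol, and Lsd1 and nos were dropped as ambiguous. The genes described were chosen with earlier results of these data known, and so were the lists, which were fixed with the rule for naming genes: all 10 genes, genes that share their peaks, and up to 5 genes with the highest peaks of each list; gw, DCP1, r2d2, Hen1 and Panx were added after their values were seen. No test across genes was made. The procedures were tested on simulated data. Computation used pandas 2.3.3 and NumPy 2.4.6 under Python 3.11.15, and figures matplotlib 3.10.9.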

Additional observations from a re-analysis of the deposited data

How the results depend on the processing

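The 3 general genes with a peak were the same genes with windows of 250 or 1000 bp, with RefSeq start sites and at an IDR of 0.1 or less, an alternative chosen after seeing the data. Of all protein-coding genes, 19.8% and 24.8% had a peak with these windows, 22.5% with RefSeq start sites and 28.8% at that IDR. AGO1 and Dcr-1 remained in the optimal list. The count fell to 1 of 10 (1 of 7 general genes) in 5 settings. In all 5 the share of protein-coding genes with a peak was also below the 22.6% of the main setting. That share was 18.8% without replicate 1, 19.5% without replicate 2 and 14.01% in the upper 50% by signal. At an IDR of 0.001 or less it was 16.7%, and with nearest start sites only 16.2%. AGO1 alone had a peak without replicate 1, without replicate 2, in the upper 50% of conservative peaks by signal and at an IDR of 0.001 or less, also chosen after seeing the data; AGO2 alone had one with nearest start sites only. The AGO1 signal was 164.8 without replicate 1 and 155 without replicate 2, from single libraries, so its scale differs by construction; AGO2 and Dcr-1 have no value in these lists, nor AGO2 in the optimal list. The piRNA genes had 0 peaks in every setting run. Over the further lists, the upper 50% by signal holds 6 piRNA biogenesis, 6 nuclear piRNA and 1 germ line marker genes with a peak, and nearest start sites only gave 6 nuclear piRNA genes; the first setting has fewer peaks and the second gives each summit to fewer genes. Leaving out a replicate gave 11 to 12 genes of microRNA silencing, 8 to 10 of the siRNA list, 7 to 8 of piRNA biogenesis, 9 of the nuclear list in both cases and 3 to 4 germ line markers. Motif counts at the 3 peaks moved in 10 of 30 comparisons with other windows. No paired analysis was possible because there is only 1 group.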
